A study of Erophylla sezekorni and Pteronotus quadridens with 48 samples.

Results

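Transcripts that encode transposase domains were collected from the annotated transcript assemblies of 2 bats, *Erophylla sezekorni* and *Pteronotus quadridens*. A transcript was a member when its predicted protein held the Pfam domain DDE_Tnp_1_7 or Dimer_Tnp_hAT, or any Pfam domain with DDE_ or Tnp in its name. Transcripts whose best SwissProt match was a LINE-1 protein (LORF2, LIN1 or LORF1) were left out. This gave 191 of 1064426 transcripts in *Erophylla* and 145 of 1156187 in *Pteronotus*. Grouped by the gene part of the transcript identifiers, the members formed 66 of 781237 assembled genes in *Erophylla* and 71 of 857239 in *Pteronotus*. An assembled gene is a group of overlapping assembled sequences, so 1 gene of a bat may be split over several of them.

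The RNA came from wild-caught embryos. Forelimb, plagiopatagium (the membrane between flank and limbs), uropatagium (the membrane between hind limbs and tail) and heart were sampled at St 14 and St 16. Each tissue and stage of each species has 3 libraries, 24 per species and 48 in all, made with a stranded mRNA kit. The libraries that went into each assembly are not named in the sources used here, so the members are described per species, and their levels by tissue or stage were not analysed here. With 1 assembly per species there are no replicates, and no difference between the species was tested.

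DNA transposons move by excision and reinsertion, carried out by a transposase that they encode. Most of these enzymes share a catalytic core with acidic residues, the DDE or DDD triad, joined to a DNA-binding part such as a helix-turn-helix or a zinc finger. Host genomes have repeatedly taken over transposase genes, and many such genes in mammals now encode DNA-binding proteins of the nucleus. Bats of the genus *Myotis* are known among mammals for DNA transposons that were active recently.

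The label of these transcripts held for most members but not for all. Domains of DNA transposons were found in 60 of the 66 assembled genes of *Erophylla* and in 66 of the 71 of *Pteronotus*, with the 1 gene of a zinc ribbon described further on counted among those of *Erophylla*. The remaining 6 and 5 genes held Tnp_22_dsRBD or Tnp_22_trimer, which are parts of the first open reading frame of LINE-1 retrotransposons and carry Tnp in their names only. The rule also missed a family: the mariner domain Transposase_1 was listed for 15 transcripts of *Erophylla* and 13 of *Pteronotus*, and 0 of these were members. Before the LINE-1 names were left out, 240 and 192 transcripts had a domain of the rule, so 49 and 47 were removed by name.

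By the domain with the lowest E-value (the number of equally good hits that chance alone would give), pogo and Tigger elements made up most of the members. They accounted for 44 assembled genes in *Erophylla*, 66.7% of the members (95% Wilson interval 54.7% to 76.8%). In *Pteronotus* they accounted for 46 genes, or 64.8% (53.2% to 74.9%). These intervals, like all others given here, cover counting error only. The piggyBac group followed with 7 and 11 genes in *Erophylla* and *Pteronotus*, and the hAT group with 6 and 7. In the grouping used here, pogo and Tigger were kept apart from Tc1/mariner, which was counted by the domain DDE_3 alone. Tc1/mariner in this narrow sense and PIF/Harbinger had 1 gene each in both species. Among the assembled genes, 32 of the 66 in *Erophylla* and 47 of the 71 in *Pteronotus* had 1 member transcript, and the largest had 14 and 17.

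**Figure D1:**
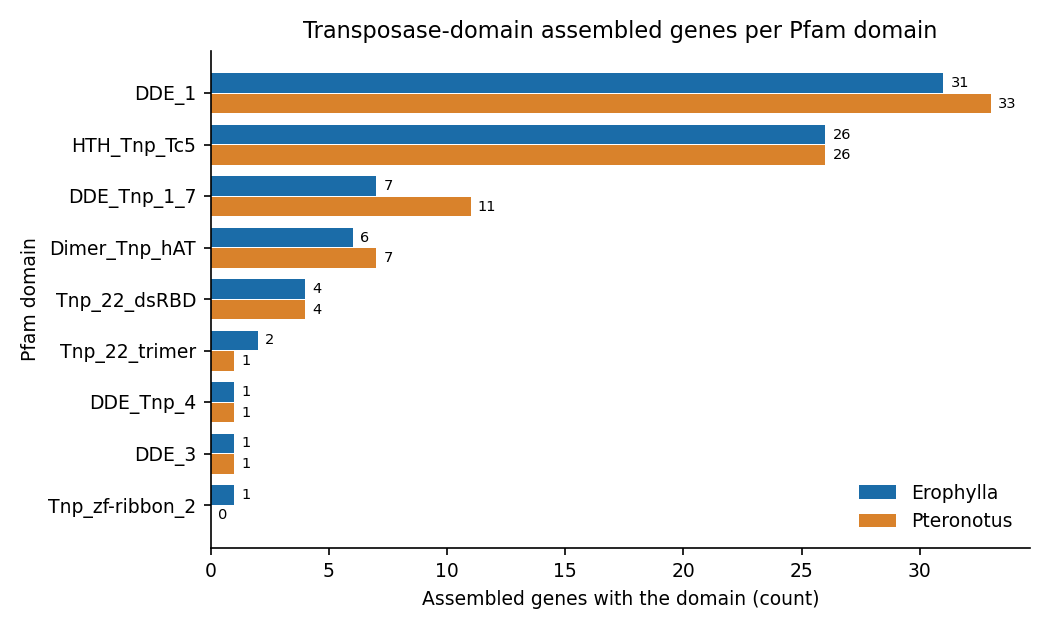
Assembled genes (count, horizontal axis) that hold each Pfam domain of the rule (vertical axis), in *Erophylla* (blue) and *Pteronotus* (orange); a gene with several domains is counted under each. DDE_1 leads with 31 and 33 genes, followed by HTH_Tnp_Tc5 with 26 in each species.

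Assembled genes were named by the SwissProt protein that their member transcripts matched with the lowest E-value. The members carried 25 names in *Erophylla* and 28 in *Pteronotus*. Of these, 21 names were found in both species, which is 84% of the names of *Erophylla* and 75% of those of *Pteronotus*. Over all named assembled genes, lists of far more names, 95.1% and 94.0% were found in both. No SwissProt match was listed for 6 and 12 of the assembled genes, and 5 and 10 of these had a match in the larger nr protein collection.

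The catalytic domain of pogo and Tigger proteins, DDE_1, was found in 31 assembled genes of *Erophylla* and 33 of *Pteronotus*, and the DNA-binding domain HTH_Tnp_Tc5 in 26 of each. Both domains stood on the same assembled gene in 12 and 13 cases. DDE_1 stood alone in 19 and 20 genes, and HTH_Tnp_Tc5 alone in 13 of each. In *Erophylla*, 1 further gene held HTH_Tnp_Tc5 beside the Tc1/mariner domain DDE_3. Whether those are pieces of longer proteins was not tested. A further DNA-binding domain, CENP-B_N, stood beside a domain of the rule in 15 and 14 assembled genes.

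Several Tigger-derived proteins were recovered nearly whole in both bats, with high identity to the human protein. Residues and identity given for an assembled gene are those of its match with the lowest E-value, and further matches of its transcripts can cover other parts. JERKL, a relative of the mouse protein Jerky, matched from residue 1 to 524 in each bat, at an identity of 96.2% for *Erophylla* and 96.0% for *Pteronotus*. It also held the DDE_1 domain with the lowest E-value of each species, 9.1e-59 and 1.1e-58. In both bats its domains lay at the same residues of the predicted protein, CENP-B_N at 4 to 52, HTH_Tnp_Tc5 at 76 to 136 and DDE_1 at 207 to 385. A second JERKL gene of *Pteronotus* was distant, with 34.1% identity over residues 265 to 388. TIGD2 matched from residue 1 to 525 with 93.9% and 94.1% identity. Its domains lay at the same residues as those of JERKL in both species, a layout shared by a pair of proteins with different names.

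TIGD4 matched from residue 1 to 512, at 92.4% identity for *Erophylla* and 93.2% for *Pteronotus*. Its HTH_Tnp_Tc5 domain, at residues 84 to 145, had the lowest E-value of that domain in each species, 1.6e-19 in both. TIGD3 matched from residue 18 to 459 with 88.2% and 87.8% identity, and in *Pteronotus* its assembled gene held 17 member transcripts, the most of any member. The functions of these TIGD proteins are little known. TIGD5 matched residues 238 to 643 of the bovine protein in *Erophylla* (87.7% identity) and residues 53 to 643 in *Pteronotus* (90.2%). The longer match in *Pteronotus* took in the part with HTH_Tnp_Tc5 and CENP-B_N, and the gene of *Erophylla* held DDE_1 alone.

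TIGD7 had assembled genes in both orientations in each species, as TIGD1, POGK and ZMYM1 also did. How often this occurs over all assembled genes was not counted. In each species TIGD7 was carried by 2 assembled genes with the same match and the same identity, 1 aligned forward and 1 in reverse. The best match of both covered residues 1 to 268 in *Erophylla*, with 87.7% identity, and residues 1 to 537 in *Pteronotus*, with 85.7%. Over all TIGD7 matches, residues 1 to 537 were covered in both species. Transcripts in both orientations were thus assembled for the same stretch of this protein in each bat. TIGD6 was a member in *Pteronotus* only, by 1 transcript with 37.2% identity over 187 residues, although 4 assembled genes of *Erophylla* carried the name without a domain of the rule.

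Of the proteins with known roles, CENPB binds a short motif in centromeric satellite DNA. It was assembled in pieces in both species. The piece with the DNA-binding domains matched residues 7 to 138 of human CENPB (99.2% identity) in *Erophylla*, and residues 7 to 148 (97.9%) in *Pteronotus*. The piece with DDE_1 matched residues 169 to 403 with 96.2% identity in each species. The DNA-binding piece had the highest identity to SwissProt among the pogo and Tigger genes of each bat. JERKY, whose loss causes seizures in mice, matched the mouse protein with 70.7% identity in *Erophylla* and 77.6% in *Pteronotus*.

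POGZ, a chromatin protein that binds heterochromatin protein HP1 and takes part in chromosome segregation, had 1 member gene in each species. Its best match covered residues 802 to 1410 in *Erophylla* (92.8% identity) and 790 to 1410 in *Pteronotus* (94.4%). Over all POGZ matches of the member transcripts, residues 1 to 1410 and 623 to 1410 were reached. Both species had HTH_Tnp_Tc5 at residues 154 to 210 and DDE_1 at residues 284 to 415 of the predicted protein with the best DDE_1 domain. The E-value of DDE_1 in POGZ was 1.6e-12 in each species, far weaker than in JERKL.

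**Figure D2:**
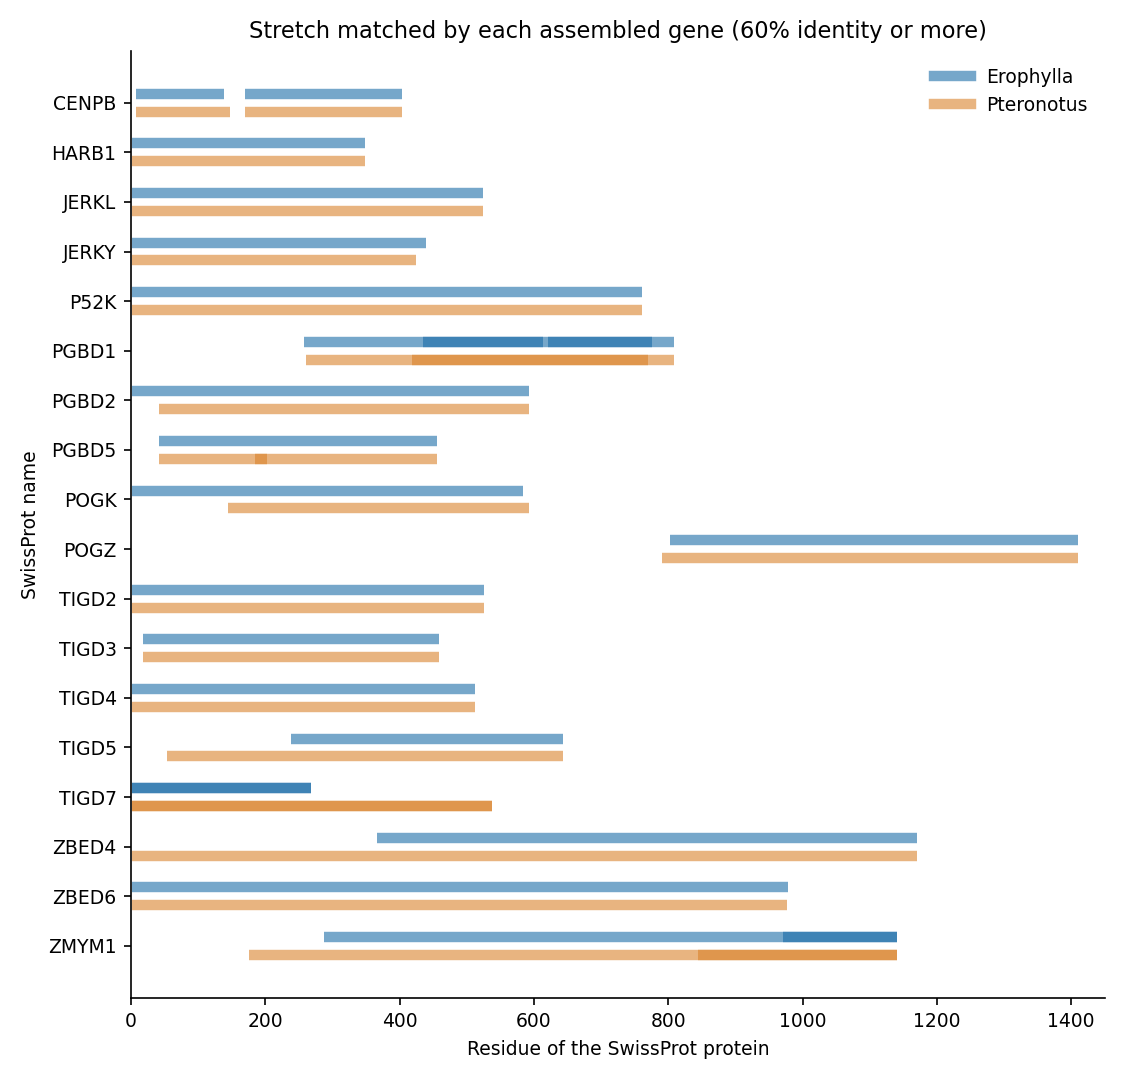
Stretch of the SwissProt protein (residue number, horizontal axis) covered by the best match of each assembled gene with at least 60% identity, for names found in both species other than TIGD1 (vertical axis), in *Erophylla* (blue) and *Pteronotus* (orange); darker parts mark genes that overlap. HARB1, JERKL, P52K, TIGD2 and TIGD4 start at residue 1 and end at the same residue in both species, while CENPB is in 2 pieces.

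POGK, a protein with a KRAB domain in front of its pogo transposase, split sharply by identity. A single member gene in each species was close to the human protein. Its identity was 90.9% over residues 1 to 584 in *Erophylla* and 95.6% over residues 144 to 593 in *Pteronotus*. The other 13 member genes named POGK in *Erophylla* had 26.3% to 41.7% identity, and the other 6 in *Pteronotus* 29.2% to 39.5%. No POGK member gene lay between these values and the close match. Length was taken from the longest predicted protein of each gene that held a domain of the rule. By this measure the distant genes were short, with a median of 128 codons in *Erophylla* and 153.5 in *Pteronotus*. The close genes had 718 and 460. In the close genes, the predicted protein with the lowest-E DDE_1 domain had 513 codons in *Erophylla* and 460 in *Pteronotus*.

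The distant POGK genes had their best nr matches outside mammals throughout. In *Erophylla*, 8 of the 13 matched a protein from outside vertebrates and 5 a vertebrate other than a mammal, with identities of 52.9% to 82.3%. In *Pteronotus* the numbers were 4 and 2 of 6, with 53.1% to 74.0%. The organisms were the spider *Stegodyphus mimosarum*, the tick *Nuttalliella namaqua*, the pit viper *Protobothrops mucrosquamatus* and the frog *Xenopus tropicalis*, the same 4 in both bats. The identity to these proteins was higher than to human or mouse POGK, for example 82.3% to a frog protein against 35.5% to POGK for the same gene of *Erophylla*. The source of these sequences was not tested.

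TIGD1 was the most frequent name among the members, with 17 assembled genes in *Erophylla* and 19 in *Pteronotus*. It belongs to a protein derived from Tigger elements, which have many copies in mammalian genomes. Identity to human TIGD1 spanned 26.0% to 92.5% among the genes of *Erophylla*, and 28.8% to 90.8% among those of *Pteronotus*. With a limit of 60%, chosen after the values were seen, 4 of 17 and 8 of 19 genes lay at or above it. Those closest to human TIGD1 covered short stretches, residues 1 to 106 in *Erophylla* and 34 to 152 in *Pteronotus*.

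Matches over more than 400 residues of TIGD1, a length also chosen after the values were seen, were found in 3 genes of *Erophylla* and 2 of *Pteronotus*. All had identities under 60%. A gene of this kind in each species had DDE_1 at residues 220 to 402 of its predicted protein. It matched TIGD1 over residues 2 to 540 with 39.1% identity in *Erophylla* and over 2 to 541 with 39.4% in *Pteronotus*. Its nr matches were much closer, with 83.7% identity to a walrus protein in *Erophylla* and 86.7% to a donkey protein in *Pteronotus*. Another pair matched proteins of the flying fox *Pteropus alecto*, over 764 residues with 79.1% identity in *Erophylla* and over 664 residues with 86.4% in *Pteronotus*. In these pairs the nr protein was closer than TIGD1. In other genes the identity to the nr protein was lower, but over a longer match. A gene of *Erophylla* had 92.5% identity to TIGD1 over 106 residues and 87.5% to its nr match over 127. A gene of *Pteronotus* had 90.8% over 119 residues and 87.1% over 194. The crocodilian *Gavialis gangeticus* gave the best nr match of 2 TIGD1 genes in *Erophylla* and 5 in *Pteronotus*, and the lizard *Pogona vitticeps* that of 1 in *Erophylla*.

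**Figure D3:**
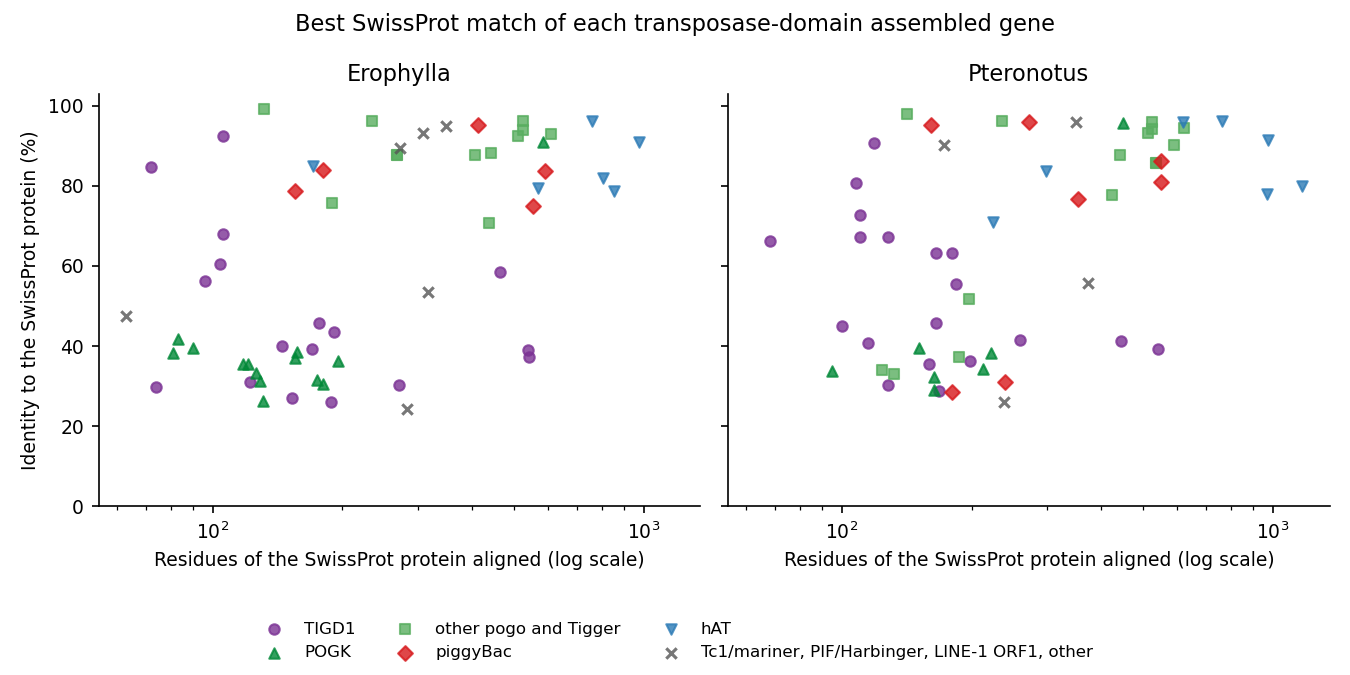
Identity to the best SwissProt protein (percent, vertical axis) against the residues of that protein aligned (log scale, horizontal axis) for each named assembled gene of *Erophylla* (left) and *Pteronotus* (right), marked by name or superfamily. POGK member genes (dark green) lie at 26.3% to 41.7% and 29.2% to 39.5%, apart from 1 in each species at 90.9% and 95.6%.

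The piggyBac domain DDE_Tnp_1_7 was found in 7 assembled genes of *Erophylla* and 11 of *Pteronotus*. The lowest E-values of any domain of the rule were in this group, 1e-90 for PGBD2 in *Erophylla* and 2.1e-95 for PGBD1 in *Pteronotus*. PGBD5, a piggyBac-derived protein expressed mainly in the brain, matched residues 42 to 455 with 95.2% identity in *Erophylla*. In *Pteronotus* it was in 2 assembled genes, over residues 42 to 202 (95.03%) and 184 to 455 (96.0%), which together spanned the same residues. PGBD2 matched residues 1 to 592 in *Erophylla* with 83.6% identity, and 42 to 592 in *Pteronotus* with 86.2%.

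PGBD1, which joins a SCAN domain to a piggyBac transposase, had 3 member genes in *Erophylla* and 2 in *Pteronotus*. The best matches covered residues 257 to 809 with 75.0% identity and 260 to 809 with 80.9%. Over all PGBD1 matches of the member transcripts, residues 110 to 809 and 234 to 809 were covered. A SCAN domain was listed for 6 of the 16 transcripts named PGBD1 in *Pteronotus*, and none was listed for the 24 in *Erophylla*.

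PGBD4 differed from the other piggyBac names. It was a member name in *Pteronotus* only, with 2 assembled genes at 28.5% and 31.1% identity to human PGBD4. The same genes matched nr proteins of *Myotis lucifugus* with 92.2% and 94.2% identity. In *Erophylla*, 2 assembled genes carried the name PGBD4 and neither held a domain of the rule. The piggyBac genes without a SwissProt name mostly matched spiders in both bats. In *Erophylla* there were 2, and both matched *Parasteatoda tepidariorum*, with 37.4% and 47.1% identity. Of the 4 in *Pteronotus*, 2 matched the same spider, with 54.8% and 56.3%, and 1 matched *Stegodyphus mimosarum* with 35.0%. The remaining gene matched *Myotis lucifugus* with 94.8% identity over 116 residues.

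Members of the hAT group held Dimer_Tnp_hAT, the C-terminal part through which hAT transposases pair, in 6 assembled genes of *Erophylla* and 7 of *Pteronotus*. By the longest predicted protein of each gene that held a domain of the rule, their median length was the highest of any superfamily with more than 1 gene. It was 794 codons in *Erophylla* and 975 in *Pteronotus*. In some genes the predicted protein with the lowest-E hAT domain was shorter, such as 104 codons against 1176 for ZBED4 in *Pteronotus*. P52K, a THAP-domain protein known as a repressor of an inhibitor of the kinase PKR, matched residues 1 to 761 with 96.2% identity in both species. ZBED6, a repressor of *Igf2* in the muscle of placental mammals, matched residues 1 to 978 with 90.9% identity in *Erophylla* and 1 to 977 with 91.4% in *Pteronotus*. Both species had a pair of BED zinc fingers in front of the hAT domain of ZBED6, the first at residues 135 to 181.

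The best match of ZBED4 covered residues 366 to 1171 in *Erophylla* with 81.8% identity, and 1 to 1171 in *Pteronotus* with 80.0%. Over all ZBED4 matches of the member transcripts in *Erophylla*, 1067 residues from 76 onward were covered. ZBED1, a BED finger protein related to the fly factor DREF, was a member in *Erophylla* only, with 79.3% identity. In *Pteronotus*, 3 assembled genes were named ZBED1, and none of them had a domain of the rule. ZMYM1, a zinc finger protein of the MYM type, held the hAT domain with the lowest E-value of each species, 3.2e-17 and 4.4e-15. It had 2 assembled genes in each species, a long one aligned forward with 78.8% and 78.0% identity and a shorter one in reverse with 84.9% and 83.6%.

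PIF/Harbinger was represented by HARB1, the HARBI1 protein, a domesticated nuclease relative that enters the nucleus with the partner NAIF1. HARB1 matched residues 1 to 349 with 94.8% identity in *Erophylla* and 96.0% in *Pteronotus*, and DDE_Tnp_4 lay at residues 148 to 300 of the predicted protein in both. NAIF1, which does not hold a domain of the rule, was named in 1 assembled gene of each species, with 95.1% and 96.0% identity.

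Tc1/mariner, with pogo and Tigger kept apart, was represented by a protein with DDE_3. Its nearest SwissProt protein was TC3A, the transposase of the worm element Tc3. Identity to TC3A was 24.3% in *Erophylla* and 26.2% in *Pteronotus*. In nr both matched the octopus *Octopus bimaculoides*, with 47.1% identity over 336 residues and 46.8% over 344. The predicted protein with the lowest-E DDE_3 domain was 343 codons long in *Erophylla* and 352 in *Pteronotus*, and DUF4817 stood beside DDE_3 in both. The gene had 10 member transcripts in *Erophylla*, 3 of them with DDE_3, and 1 in *Pteronotus*. In *Erophylla* the gene also held HTH_Tnp_Tc5, the domain through which its other transcripts were members. Its lowest DDE_3 E-values were weak, 1e-06 and 1.1e-06.

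The members with LINE-1 domains included LITD1, the L1TD1 protein, an RNA-binding protein of embryonic stem cells that derives from LINE-1 itself. It had 2 assembled genes in *Erophylla*, both in reverse, with 47.6% and 53.5% identity, and 1 in *Pteronotus* with 55.6%. Other names with Tnp_22_dsRBD were S2548, a mitochondrial carrier of the SLC25 family, in *Erophylla* and F185A in *Pteronotus*. In S2548 the SwissProt match and the domain lay on different parts of the transcript, and the predicted protein with the domain matched LORF1. The transcripts of CTBP2, a transcriptional corepressor, held the only zinc ribbon of the rule, Tnp_zf-ribbon_2. It had the weakest domain E-value of *Erophylla*, 0.001, and lay apart from the CTBP2 match.

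Some names outside the naming rule were chosen after their values were seen. NSD3, a histone methyltransferase, was a hAT member in *Pteronotus* because a separate coding region of its transcripts held Dimer_Tnp_hAT. The match to NSD3 ran over residues 1 to 619 with 96.0% identity, and the predicted protein with the domain was named ZBED4 instead. ZFP28 in *Pteronotus*, with 51.8% identity over 197 residues, had a KRAB domain as well as CENP-B_N and HTH_Tnp_Tc5. ZMYM5 in *Erophylla*, with 75.7% identity, held the same DNA-binding pair without KRAB. CENP1 and ZB6CL in *Pteronotus* had 33.1% and 70.9% identity.

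A SwissProt match overlapped a domain of the rule, on the same strand, in 58 assembled genes of *Erophylla* and 57 of *Pteronotus*. Any overlap was counted, by any match of a member transcript, and the best match of the gene can lie elsewhere. The matches lay apart from the domain in 2 genes of each. The name of the predicted protein was the same as that of the transcript in 58 of 60 named genes and in 57 of 59. Most names therefore describe the part of the transcript that holds the domain.

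Besides the domains of the rule, the predicted proteins shared DNA-binding parts. After CENP-B_N, the next were BrkDBD, with 2 assembled genes in each species, and zf-BED, also with 2 in each. DUF4371, which is found in hAT transposases, was in 2 of each, with the names P52K and ZMYM1. KRAB and THAP were in 1 gene each in both species. Among functional terms assigned from Pfam, nucleic acid binding was listed for 32 and 35 assembled genes. DNA binding was listed for 17 and 16 and protein dimerization for 6 and 7. The domains of the rule bring such terms themselves, so these counts follow at least in part from the selection. Their share over all assembled genes was not counted. A membrane helix was predicted in 3 and 2 assembled genes.

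The organism of the best nr match ranged widely. Of 65 assembled genes with an nr match in *Erophylla*, 25 matched bats, 21 other mammals, 8 other vertebrates and 11 organisms outside vertebrates. Of 69 in *Pteronotus*, the numbers were 28, 21, 9 and 10, with 1 unsorted. Matches outside vertebrates were thus 16.9% of the genes in *Erophylla* (9.72% to 27.8%) and 14.5% in *Pteronotus* (8.07% to 24.7%). Counted by transcript, they were 12.2% of the members of *Erophylla* (8.25% to 17.6%) and 9.09% of those of *Pteronotus* (5.39% to 14.9%). Over all transcripts with an nr match the shares outside vertebrates were 2.64% and 2.90%. Also by transcript, bats were 34.4% and 58.7% of the members, against 40.8% and 39.8% over all transcripts. Other mammals were 47.1% and 23.8%, against 52.4% and 52.8%. Other vertebrates were 6.35% and 7.69%, against 1.92% and 1.85%. Counted by assembled gene, bats were 38.5% and 40.6% of the members, and other mammals 32.3% and 30.4%. The shares by transcript give more weight to genes with many member transcripts. Examples are PGBD2, with 14 in *Erophylla*, and TIGD3, with 17 in *Pteronotus*. For the assembled genes, the organisms outside vertebrates were the spiders, the tick and the octopus named above, with no insect among them.

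**Figure D4:**
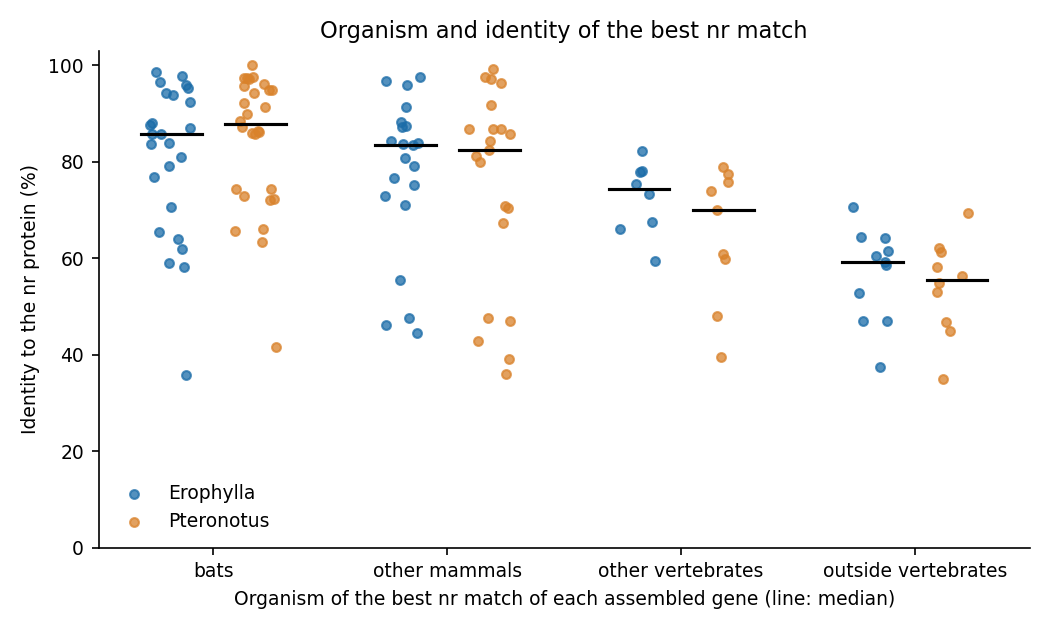
Identity to the best nr protein (percent, vertical axis) by the organism group of that protein (horizontal axis), 1 point for each assembled gene of *Erophylla* (blue) and *Pteronotus* (orange), with the median as a line; 1 unsorted gene is not drawn. The medians are 85.7% and 87.8% for bats and 59.2% and 55.6% outside vertebrates.

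The bats shared part of the matched proteins. The members matched 53 different nr proteins in *Erophylla* and 57 in *Pteronotus*, and 22 of these were the same, or 41.5% and 38.6%. Over all assembled genes with an nr match, 29.6% and 27.2% of the nr proteins were the same. JERKY, TIGD2 and TIGD3 matched *Hipposideros armiger* in both species, TIGD4 matched *Miniopterus natalensis* and JERKL matched *Rousettus aegyptiacus*. Even the bat proteins varied in closeness, between 35.8% and 98.7% identity for *Erophylla* and between 41.7% and 100% for *Pteronotus*.

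The members were set beside the LINE-1 transcripts, which the rule left out by name, and beside all other transcripts with a SwissProt match. Of the members with a SwissProt match, 88.3% aligned forward in *Erophylla* (82.4% to 92.4%) and 92.4% in *Pteronotus* (86.5% to 95.8%). LINE-1 names aligned forward in 47.0% (46.4% to 47.6%) and 47.3% (46.8% to 47.8%), and all other matched transcripts in 93.0% (92.9% to 93.1%) and 92.8% (92.7% to 92.9%). Forward means that the protein is read along the transcript as assembled. The intervals count transcripts of the same assembled gene as if they were separate. By assembled gene, the best match was in reverse in 13 of 60 named members of *Erophylla* and 9 of 59 of *Pteronotus*. This share by gene was not counted for the other groups. Named members had 2.70 transcripts per assembled gene in *Erophylla* and 2.22 in *Pteronotus*, LINE-1 names 1.18 in each, and the others 4.40 and 3.89. For the members this counts only transcripts with a domain of the rule.

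Identity and the length of the match were set beside the same groups. Median identity to SwissProt was 79.3% and 85.1% for the members in *Erophylla* and *Pteronotus*, 48.1% and 47.9% for LINE-1 names, and 89.2% and 89.5% for the others. The median match covered 296 and 353 residues in the members, 69 and 70 in LINE-1 names, and 166 and 148 in the others. Every member has a predicted coding region because the rule needs one, while 6.37% and 6.03% of LINE-1 transcripts and 73.3% and 70.0% of the others had one. The groups therefore differ in how they were selected, which limits the comparison of orientation and identity as of length. How far the selection accounts for these differences was not tested.

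Kept to transcripts with a predicted coding region, a restriction chosen after seeing the data, LINE-1 names aligned forward in 50.1% (47.8% to 52.5%) in *Erophylla* and 46.1% (43.9% to 48.3%) in *Pteronotus*. The other matched transcripts then reached 97.1% (97.0% to 97.2%) and 96.9% (96.8% to 97.0%), above the intervals of the members. Median identity was then 43.9% and 44.2% for LINE-1 names and 89.7% and 90% for the others. The median match was then 96 and 93 residues for LINE-1 names and 238 and 225 for the others.

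Members aligned in reverse were counted by name. In *Erophylla* they were 13 of 60 named assembled genes, with TIGD1 (5), POGK (4), LITD1 (2), TIGD7 (1) and ZMYM1 (1). In *Pteronotus* they were 9 of 59, with TIGD1 (6) and 1 each of POGK, TIGD7 and ZMYM1. Over all named members, in either orientation, TIGD1 and POGK had 17 and 14 genes in *Erophylla*, and 19 and 7 in *Pteronotus*. Of the 25 and 28 names, 18 and 19 had 1 gene. All POGK genes in reverse were distant from human and mouse POGK, with identities under 60%.

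The rule reaches a part of the transposase-derived names in these assemblies. A list of 48 names of such proteins, RAG1 included as a comparison, was looked up over all transcripts of each assembled gene. In *Erophylla* 38 of the names were found and 19 held a member, and in *Pteronotus* 39 and 20. The tallies leave out JERKL, a member in both bats, which was listed only under its gene symbol JRKL. The symbols JRK, GTF2IRD2 and ZBED9 count among the names not found, and their SwissProt names JERKY, GT2D2 and SCND3 were found under their own entries. The gap was widest for TIGD1, carried by 433 and 484 assembled genes of the respective bats, of which 17 and 18 held a domain of the rule. POGK was carried by 43 and 35, of which 14 and 7 were members. Counted in this way, a gene takes its name from all its transcripts and not from its member transcripts alone, so TIGD1 has 1 member gene fewer in *Pteronotus* than above.

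Many names on the list had assembled genes but 0 members. The mariner name SETMR, a fusion of a histone methyltransferase with a mariner transposase, was the name of 197 assembled genes for *Erophylla* and 199 for *Pteronotus*, and MOS1T, the transposase of the fly element mariner, that of 40 and 29. Of the hAT names, SCND3 had 65 and 61 assembled genes and ZBED5 39 and 56. GT2D2, a transcription factor fused to a hAT transposase, had 33 and 22, and ZMYM6 16 and 24. THAP9, which derives from a P element transposase, had 7 and 3. RAG1, the recombinase of antigen receptor genes, which derives from a Transib transposase, had 2 and 1. In GT2D2 the domains listed were GTF2I and DUF4371, each in 2 of 47 transcripts in *Erophylla* and 2 of 45 in *Pteronotus*.

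**Figure D5:**
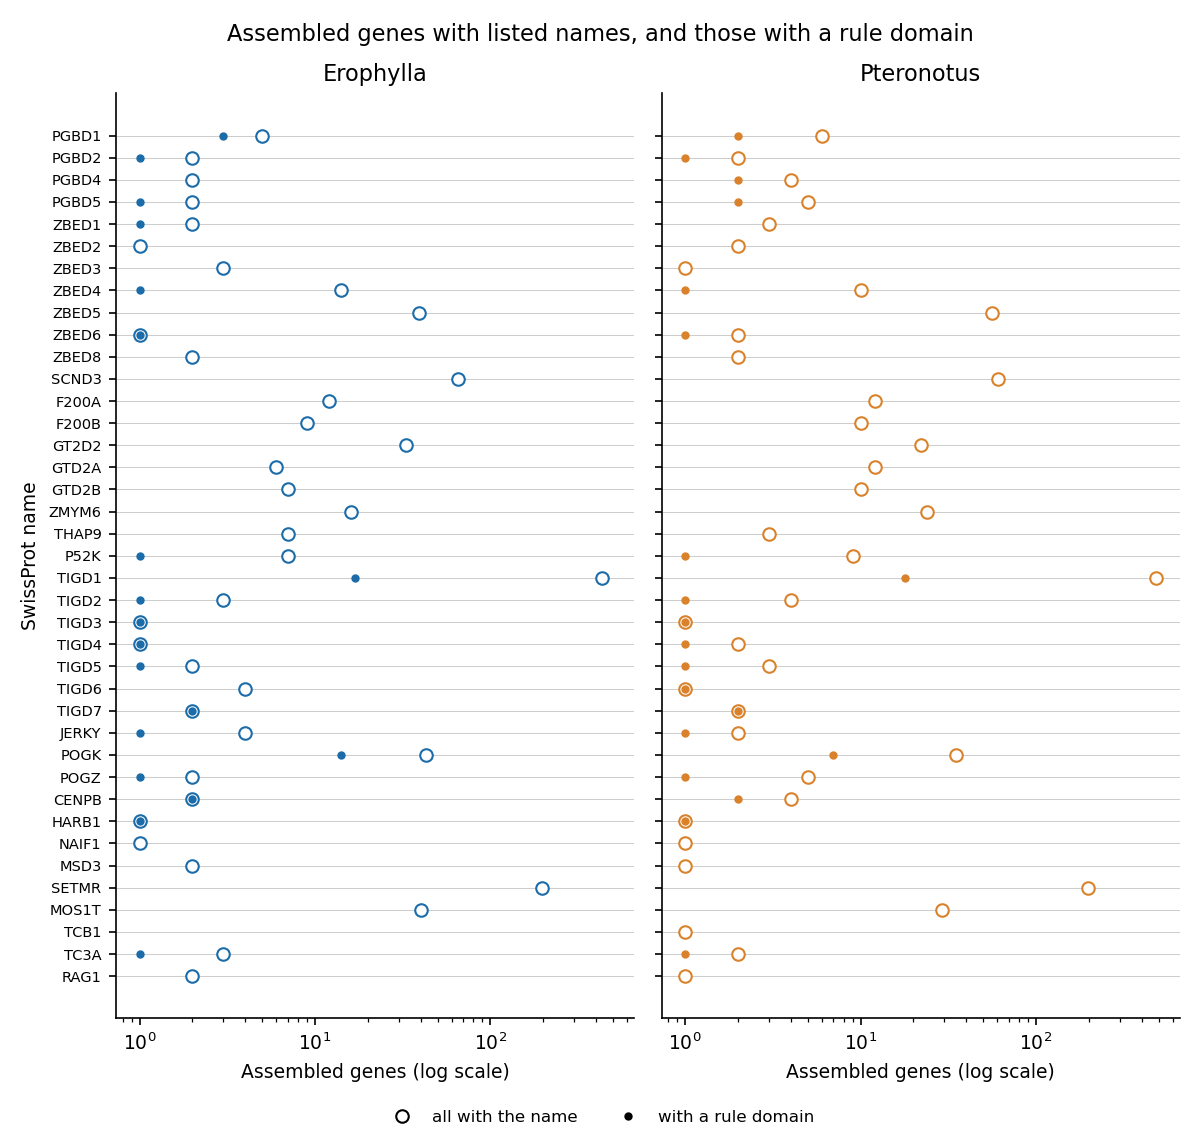
Assembled genes (log scale, horizontal axis) named for each listed protein found in either species (vertical axis), as open circles for all genes with the name and dots for those with a domain of the rule, in *Erophylla* (left) and *Pteronotus* (right). TIGD1 lies farthest right, with 433 and 484 genes of which 17 and 18 hold a domain, and SETMR has 197 and 199 with none.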

How the data were processed

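RNA-Seq libraries were made from 4 tissues of embryos at 2 stages of each species. The authors deposited, for each species, a Trinotate report of an assembly whose identifiers have the form written by Trinity, and a DIAMOND table of matched proteins. Both hold annotation text. Program versions and settings are not stated there, and the nr collection is dated by its column name alone. The tables of counts deposited by the authors hold 48 coded columns that no label ties to a library, and these were not used.

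Each transcript was counted once. Assembled genes were named by the lowest-E SwissProt BLASTX match over member transcripts, without the species suffix. Organism groups of nr matches were sorted by hand. Named are the listed names that hold a member, for each domain the 3 names with most assembled genes, and in each species the transcript with the lowest domain E-value. Members and lists were chosen with earlier results of these data known. Shares carry 95% Wilson intervals. Parsing was tested on simulated data. Alternatives were limits on E-values, the grouping of transcripts, LINE-1 names kept and the source of names. Python 3.11.15 and matplotlib 3.10.9 were used.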

Additional observations from a re-analysis of the deposited data

How the results depend on the processing

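No paired analysis was possible because the results come from no test between libraries. With a domain E-value of 1e-10 or lower, *Pteronotus* had 94 member transcripts and 44 assembled genes, against 145 and 71, while *Erophylla* had 133 and 45, against 191 and 66. At that limit, the genes of *Pteronotus* were 16 for HTH_Tnp_Tc5, 4 for Dimer_Tnp_hAT and 1 for Tnp_22_dsRBD. DDE_3 and Tnp_22_trimer fell to 0 genes in both species, as did Tnp_zf-ribbon_2 in *Erophylla*, to 0. A stricter limit keeps fewer domains by construction.

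Counting each gene under its lowest-E domain alone gave HTH_Tnp_Tc5 15 genes in *Erophylla* and 14 in *Pteronotus*, since genes with DDE_1 were mostly counted there. With names from the predicted protein, Tnp_22_trimer had 1 name in *Erophylla* instead of 0, and that name was LORF1, which the rule leaves out. At a SwissProt E-value of 1e-50 or lower, the forward share of the members of *Erophylla* was 94.6% (88.8% to 97.5%), and the cause was not tested. The other matched transcripts stood above it at that limit, at 99.2%, and LINE-1 names at 65.4%. In *Pteronotus* the shares were 94.6%, 99.0% and 66.2%. Of the values under an alternative, 60 stayed within 1.5 times the count or within the interval, and 18 did not.

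Chosen after seeing the data were 4 alternatives. Kept to transcripts with a coding region, the forward shares of LINE-1 names were 50.1% and 46.1%, and those of the other matched transcripts 97.1% and 96.9%. Without LINE-1 domains, 180 and 133 transcripts in 60 and 66 assembled genes were left in *Erophylla* and *Pteronotus*. With a SwissProt match required over the domain on its strand, 153 and 122 transcripts in 58 and 57 genes were left. At an nr E-value of 1e-20 or lower, 16.4% and 14.1% of the genes matched outside vertebrates. Not run were the share with a complete coding region, since completeness is not recorded in the columns used, and the alternatives that need counts per library. Library depth, which sets what is assembled, was not analysed here.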
